A study of Mus musculus with 12 samples.

Results

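A set of 10 transcription regulators that steer T cell differentiation was read in mouse CD4+ T cells that had expanded in lymphocyte-deficient hosts. The genes were taken by symbol from a count matrix of 43626 genes. They were Gata3, Runx1, Runx2, Runx3, Bhlhe40, Maf, Id2, Id3, Bcl6 and Zeb2. Each symbol was found once, and all 10 passed the filter on low counts that left 13238 genes for testing.

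The study used RNA sequencing to ask which genes mark CD4+ T cells that express Eomes, the gene of the T-box factor EOMES, and which genes need it. Naive donor CD4+ T cells from the spleen (CD45RBhi CD25-) were injected into adult male Rag2-/- mice, which cannot make T or B cells but keep their myeloid and natural killer cells. After 3 weeks, CD4+ cells of each of 6 recipient spleens were sorted into a GFP-positive and a GFP-negative fraction. All donors carried 1 conditional (flox) and 1 GFP reporter allele of Eomes. Donors labelled Eomes flox/GFP with no cre are called Het. Donors labelled Eomes flox/GFP;Lck-cre are called KO; Lck-cre acts from the Lck promoter in the T cell lineage and is meant to delete the conditional allele in T cells. The 4 groups held 3 libraries each, and the libraries of a genotype that share a number came from 1 recipient. The labels do not say whether recipients of a genotype shared a donor or whether donors were pooled.

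RUNX proteins bind DNA together with CBFβ and direct CD4 and CD8 lineage choice and cytotoxic programmes. ID proteins lack a DNA-binding region and hold E proteins away from DNA, and ZEB2 competes with E proteins for E-box sites. GATA3, BCL6 and MAF direct T helper type 2 (Th2), follicular helper and interleukin-10 programmes, and BHLHE40 supports cytokine production in effector T cells.

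Promoter sequence is given for the gene that fell most in GFP-positive cells (Id2), a gene that fell with it (Gata3), the RUNX gene with the highest share in Het GFP-positive cells (Runx3) and the gene that differed most between genotypes (Zeb2). The sequences are from RefSeq on GRCm38.p6, 5′ to 3′ on the strand of the gene, end at or before the transcription start and leave out bases annotated as exon in GENCODE M21. Of the 10 genes, 8 matched the RefSeq table; Bhlhe40 and Maf did not. Capitals mark matches to GGTGTG (core motif of T-box factors), CAGGTG (E-box motif of E proteins and ZEB factors), AGATAA (motif of the GATA family) or TGTGGT (motif of RUNX factors), searched on both strands.
Id2 (chr12:25096254-25096342, minus strand, 89 bases, outside the gene's span in the count files and within its longer span in GENCODE M21): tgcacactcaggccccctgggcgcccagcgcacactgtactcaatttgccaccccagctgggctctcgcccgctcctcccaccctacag
Gata3 (chr2:9878601-9878850, minus strand, 250 bases, within the gene's annotated span): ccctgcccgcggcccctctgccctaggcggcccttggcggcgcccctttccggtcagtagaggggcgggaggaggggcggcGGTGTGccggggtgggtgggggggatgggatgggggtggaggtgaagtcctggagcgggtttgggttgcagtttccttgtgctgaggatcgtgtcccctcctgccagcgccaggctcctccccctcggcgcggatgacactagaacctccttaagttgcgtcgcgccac
Runx3 (chr4:135120395-135120644, plus strand, 250 bases): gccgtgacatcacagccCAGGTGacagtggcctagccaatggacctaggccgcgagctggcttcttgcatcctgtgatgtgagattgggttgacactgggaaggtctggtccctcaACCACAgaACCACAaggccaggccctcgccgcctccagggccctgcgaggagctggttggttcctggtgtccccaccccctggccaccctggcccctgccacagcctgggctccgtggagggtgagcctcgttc
Zeb2 (chr2:45117443-45117692, minus strand, 250 bases): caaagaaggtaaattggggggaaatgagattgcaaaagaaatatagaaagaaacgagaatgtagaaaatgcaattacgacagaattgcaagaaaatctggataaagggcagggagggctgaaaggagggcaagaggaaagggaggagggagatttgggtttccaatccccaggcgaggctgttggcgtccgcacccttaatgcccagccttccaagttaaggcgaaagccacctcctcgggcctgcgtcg
The Gata3 window held GGTGTG 169 bases before the start, and the Runx3 window held CAGGTG and a pair of ACCACA, the reverse complement of TGTGGT. A further RefSeq window of Runx3 (chr4:135152295-135152544), not printed, held none of the motifs searched. The Id2 and Zeb2 windows printed held none of these letters. No GENCODE M21 transcript of Zeb2 held the bases searched just after that Zeb2 window, which ends upstream of the gene's annotated start at 45117395. For the other 3 Zeb2 windows of the table such bases lay in a transcript, which does not show that one starts there. These 3 windows overlap exons, and each held the T-box core (137, 163 and 81 bases before their starts). The first and second of them overlap, and 137 and 163 mark the same site. Of 32851 windows of 250 bases in the same table, 16.3% held GGTGTG, 17.2% CAGGTG, 9.99% AGATAA and 14% TGTGGT, each counted on both strands, so these matches describe the windows and identify no binding site.

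Total counts per library ran from 2116894 to 18167236, and every GFP-positive library was smaller than every GFP-negative one and came from fewer sorted cells (18000 to 117000 against 645000 to 2100000). Eomes itself, the targeted gene, lay between 89.8 and 123 CPM (counts per 1000000, scaled by TMM) in Het GFP-positive, between 31.6 and 46.6 CPM in KO GFP-positive and at most 9.19 CPM in GFP-negative libraries; counts per gene do not show whether its deleted part was read. A set of 4 abundant features took 58.3% and 54.3% of the counts in the replicate 2 libraries of Het and KO GFP-positive cells and at most 30.9% elsewhere. On the first principal component, KO GFP-positive replicate 1 fell among the GFP-negative libraries. Summed CD4 T cell markers lay between 1916 and 3071 CPM in all libraries and were lower in the GFP-positive library of 6 of 6 recipients. Of these 8 genes, mean Cd3d, Cd3g, Cd4, Cd5, Cd28 and Trac fell in both genotypes. Mean Cd3e rose in Het (179 to 218 CPM) and was 196 and 197 CPM in the KO sorts. Mean Lck rose in Het (495 to 522 CPM) and fell in KO (623 to 576 CPM). Cd8a and Cd8b1 together did not exceed 4.57 CPM. The sum of 13 myeloid markers was higher in the GFP-positive library of 6 of 6 recipients, at 539 to 4109 CPM against 210 to 1716 CPM in Het and 333 to 1401 CPM against 49.8 to 669 CPM in KO, and none of the 13 was at 0 in all libraries. The sums of the natural killer, erythroid and cell cycle lists were also higher in the GFP-positive library of 6 of 6 recipients. Of the natural killer genes, mean Fcer1g and Tyrobp rose in both genotypes, and mean Klrb1c, Klre1 and Klra8 fell in both. Mean Ncr1 and Klra4 fell in Het and rose in KO. Of the cell cycle genes, mean Mki67 rose in both genotypes (1190 to 1488 CPM in Het, 1489 to 1978 CPM in KO). Mean Ccnb1 fell in both (37.8 to 31.8 CPM and 50.4 to 41.1 CPM), and Top2a and Cdk1 rose in Het and fell in KO. The sum of 4 Y-linked genes was at most 32.0 CPM in Het and 41.5 to 221 CPM in KO libraries; the labels do not give the donors' sex, so donor genotype and this difference cannot be told apart. These marker differences touch each comparison of GFP sorts or genotypes, and their part in the results was not tested. In bulk RNA, fewer cells that express a gene and less RNA per cell cannot be told apart.

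Per length (RPKM, the CPM per kilobase of exon), Id2 and Bhlhe40 stood far above the other regulators. Averaged over the 12 libraries, Id2 reached 192 ± 103 RPKM and Bhlhe40 157 ± 45.0 RPKM (SD, n = 12), in percentiles 98.6 and 98.4 of the tested genes. Their ranges overlapped each other but not that of any other of the 10 genes. A middle set of Runx3 (25.7 RPKM), Runx1 (19.6 RPKM), Runx2 (17.4 RPKM), Maf (17.2 RPKM) and Gata3 (12.8 RPKM) followed, and neighbours in this order overlapped. Zeb2 (5.73 RPKM), Bcl6 (2.59 RPKM) and Id3 (1.49 RPKM) were lowest; Id3 rested on 5 to 83 counts per library. The order changed at the top between sorts: Id2 led in both GFP-negative groups without overlapping Bhlhe40, whereas in both GFP-positive groups Bhlhe40 had the higher mean and the ranges of the pair overlapped.

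**Figure D1:**
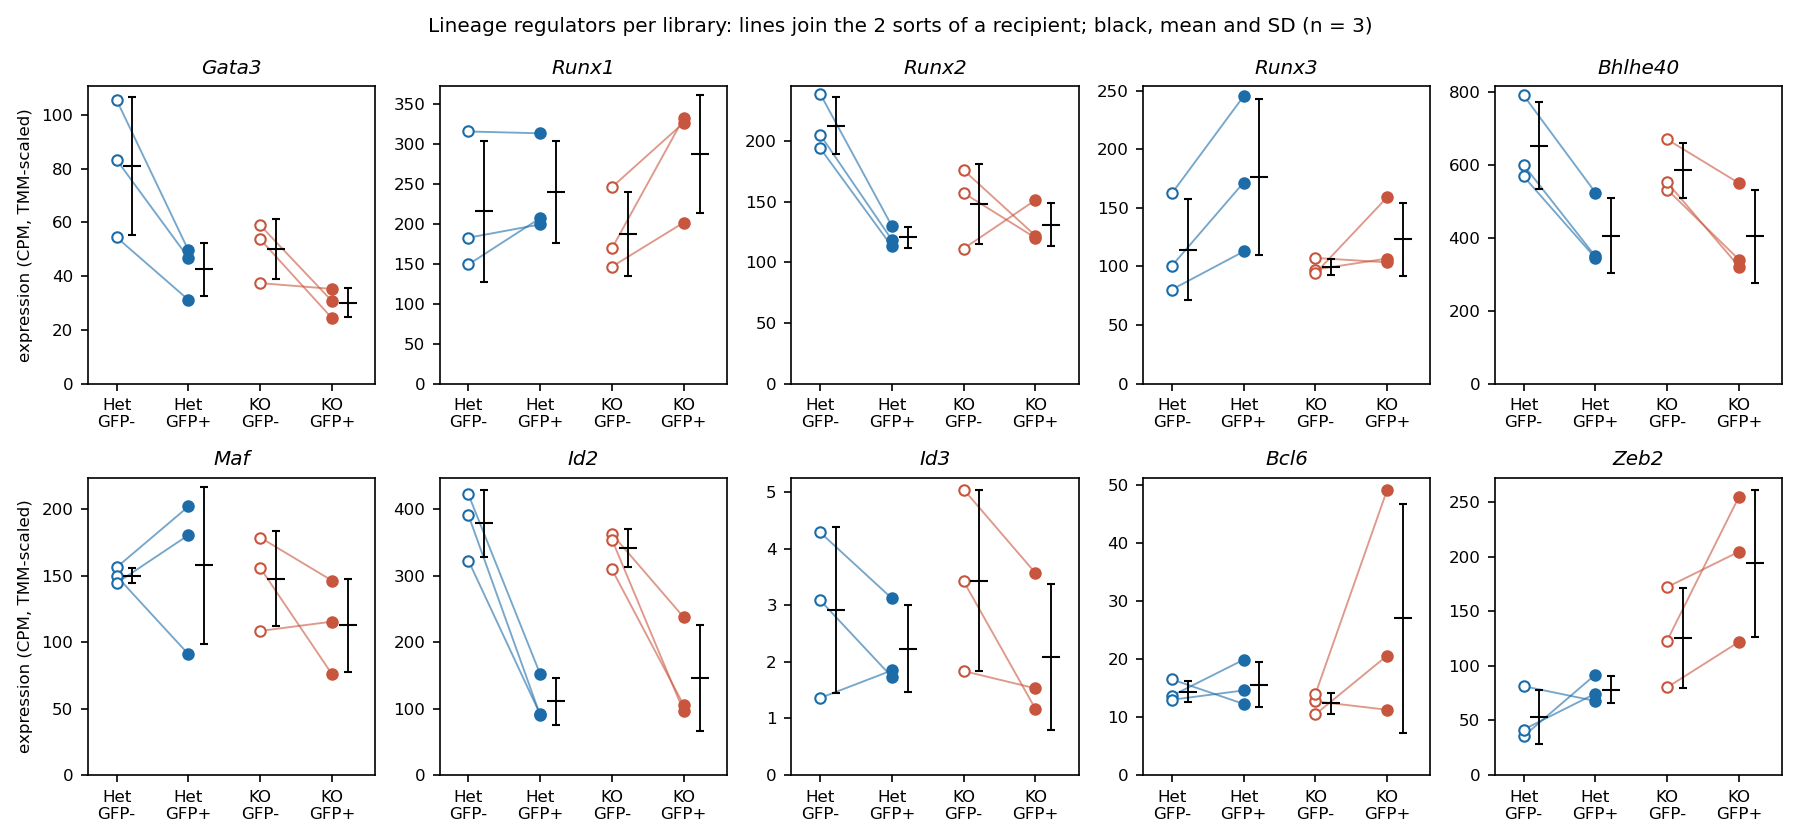
Expression of the 10 regulators in each library (vertical axis, CPM from 0, own scale per gene) in the 4 groups (horizontal axis; blue, Het; red, KO; open, GFP-negative; filled, GFP-positive). Lines join the 2 sorts of a recipient and black marks give the mean and SD of 3 libraries; Id2 and Gata3 fell along every line, and Zeb2 had its highest mean in KO GFP-positive cells.

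Setting the 2 Het sorts side by side asks what marks Eomes-expressing cells, and there Id2 and Runx2 were lower in GFP-positive cells. Id2 fell 3.40-fold and Runx2 1.76-fold. With the recipient fitted as a block, Gata3 (1.87-fold) and Bhlhe40 (1.62-fold) also fell, and Runx3 rose 1.53-fold. In KO cells the same sort gave lower Id2, Gata3 and Bhlhe40 and higher Runx1 with the block. Averaged over both genotypes, Id2, Gata3, Bhlhe40 and Runx2 fell in both fits, and Runx1, Runx3 and Zeb2 rose with the block. An offset for GC content and transcript length, added to the block, ended these 3 rises and moved Runx1 from 0.41 to 0.11, Runx3 from 0.46 to 0.05 and Zeb2 from 0.64 to 0.29 on the log2 scale.

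The counts behind these statements came from the quasi-likelihood test of edgeR at a false discovery rate (FDR) of 0.05 over all 13238 genes. Without the block it called 2 of the 10 regulators in the Het comparison, where 3.45% of all tested genes were called. In KO it called 0 of 10 (background 0.128%), with an unadjusted p under 0.05 for 3 of the 10 and 2321 genes in all. DESeq2 called 1 there, Id2. Averaged over genotypes edgeR called 4 of 10 lower and 0 higher, against 8.18% of genes lower, 9.91% higher and 18.1% in all. With the recipient block the counts were 5 of 10 in Het (background 22.2%), 4 of 10 in KO (background 17.7%) and 7 of 10 averaged, 4 lower (background 20.7%) and 3 higher (background 20.3%), against 41.1% of genes in all. Leaving out recipient 2 of both genotypes, whose GFP-positive libraries were taken up mostly by abundant features, left 2, 1 and 5 calls with the block, an alternative chosen after seeing the data. Over all genes it left 1154, 803 and 2922 calls, against 2944, 2349 and 5438 with every recipient. The groups did not overlap for 4 of 10 regulators in Het (Gata3, Runx2, Bhlhe40 and Id2, background 27.3%) and for 2 of 10 in KO (Gata3 and Id2, background 20.3%), all lower in GFP-positive cells. The median log2 fold change of the 10 was -0.18 in Het, -0.29 in KO and -0.33 averaged, against -0.02 over all tested genes in each. Gata3, Bhlhe40 and Id2 were lower in the GFP-positive cells of 6 of 6 recipients, and 37.6% of all tested genes kept 1 direction in 6 of 6.

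**Figure D2:**
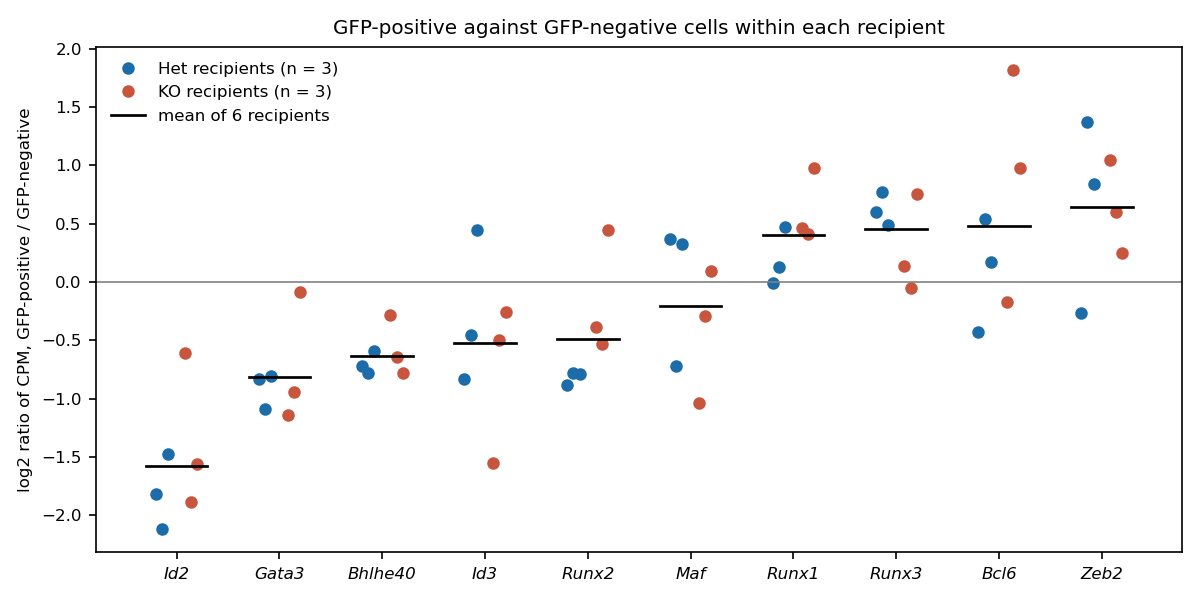
Log2 ratio of CPM in GFP-positive over GFP-negative cells (vertical axis) within each of 6 recipients for each regulator (horizontal axis, ordered by the mean; blue, 3 Het recipients; red, 3 KO recipients; bars, mean of 6). Id2, Gata3 and Bhlhe40 lay below 0 in 6 of 6 recipients.

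Id2 (GRCm38 chromosome 12, 25093801 to 25096092, minus strand) encodes the ID protein that restrains E proteins in effector T cells. It measured 322, 391 and 422 CPM in Het GFP-negative replicates 1 to 3 and 91.2, 89.8 and 152 CPM in the Het GFP-positive libraries of the same recipients. The KO values were 362, 354 and 309 CPM in GFP-negative and 237, 95.7 and 105 CPM in GFP-positive libraries. All 6 GFP-negative libraries lay above all 6 GFP-positive ones, and KO GFP-positive replicate 1 was the highest of the latter. The log2 fold change was -1.77 in Het (SE 0.33, edgeR FDR 0.0142) and -1.22 in KO (SE 0.32, edgeR FDR 0.172). With the recipient block it was -1.80 (SE 0.22, edgeR FDR 0.000443) and -1.33 (SE 0.22, edgeR FDR 0.00399). With the block and the offset for GC content and length, the KO value shrank to -0.88 and was still called (edgeR FDR 0.00152). Within recipients the log2 ratio ran from -2.12 to -0.61, the smallest change being that of KO recipient 1, and without KO GFP-positive replicate 1 the KO value without a block was -1.76 (edgeR FDR 0.0109). The Het call without the block was lost without Het GFP-negative replicate 2 (edgeR FDR 0.0608), Het GFP-positive replicate 1 (edgeR FDR 0.0536) or replicate 2 (edgeR FDR 0.0558), and the blocked KO call without KO recipient 3 (edgeR FDR 0.0577). The authors' deposited table lists Id2 at a log2 fold change of -1.68 in Het (adjusted p = 2.85e-09) and -1.03 in KO (adjusted p = 0.0275).

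The other ID gene, Id3, which preserves naive and memory states, was scarce at 1.17 to 5.05 CPM per library. Its groups overlapped, and its log2 fold change averaged over genotypes was -0.71 (SE 0.40, edgeR FDR 0.219). Among the E proteins that ID2 binds, Tcf12 (HEB) fell by 0.45 on the log2 scale and Tcf3 (E2A) rose by 0.50 averaged over genotypes (edgeR FDR 0.0194 and 0.0430). With the block Tcf4 (E2-2) fell by 1.52 in Het (edgeR FDR 0.00569), from 11.3 ± 9.41 to 3.72 ± 1.43 CPM, and had a value of 0.32 in KO (edgeR FDR 0.475), at 4.12 ± 0.494 and 5.43 ± 1.83 CPM (SD, n = 3 per group). The Tcf4 average over genotypes was -0.60 (edgeR FDR 0.0412). A summed list of dendritic cell markers was higher in the GFP-positive library of 3 of 6 recipients. Of these markers, Siglech went in Het from 7.57 ± 11.5 to 0.417 ± 0.363 CPM (SD, n = 3 per group). Mean Flt3 and Clec9a also fell in Het, and mean Itgax, Xcr1 and Zbtb46 rose. Whether dendritic cell RNA had a part in the Tcf4 values was not tested. The ID gene Id1 rose from 0.524 ± 0.475 to 4.62 ± 2.97 CPM in Het and from 0.0880 ± 0.0914 to 2.23 ± 1.82 CPM in KO (SD, n = 3 per group), which was called averaged over genotypes (edgeR FDR 0.0102); it rested on 4 to 91 counts per group. Of the 4 tested genes of this list of 5, 2 rose and 1 fell without the block (background 18.1%) and 2 rose and 2 fell with it (background 41.1%), with a median log2 fold change of 0.02 against -0.02 over all tested genes. The ratio of Id2 to summed Tcf3, Tcf4 and Tcf12 in RPKM was 10.6 ± 2.29 in Het GFP-negative and 2.78 ± 1.37 in Het GFP-positive cells, and 8.80 ± 1.09 and 3.30 ± 2.28 in the KO sorts (SD, n = 3 per group). The summed E protein level itself was 28.5, 33.0, 30.7 and 37.3 RPKM in these groups, so the ratio followed Id2.

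Gata3 (chromosome 2, 9857078 to 9890034, minus strand), the master factor of Th2 cells, measured 83.3, 106 and 54.4 CPM in Het GFP-negative and 46.8, 49.6 and 31.1 CPM in Het GFP-positive libraries. For KO the values were 53.7, 58.9 and 37.4 CPM in GFP-negative and 24.3, 30.7 and 35.2 CPM in GFP-positive libraries. The sorts did not overlap within either genotype, and Het GFP-negative replicate 2 was the highest of the 12 libraries. Averaged over genotypes Gata3 fell by 0.84 on the log2 scale (SE 0.19, edgeR FDR 0.0182), a call lost without Het GFP-negative replicate 2 (edgeR FDR 0.0576) or KO GFP-negative replicate 1 (edgeR FDR 0.0525). The change was -0.94 in Het (SE 0.27, edgeR FDR 0.0803; without GFP-negative replicate 3 -1.14, FDR 0.0464) and -0.74 in KO (SE 0.28, edgeR FDR 0.245). Of 22 alternatives 8 called the Het fall. Without a block these included DESeq2 (FDR 0.0324), limma-voom (FDR 0.0302), edgeR with no filter (FDR 0.0175) and edgeR with the GC and length offset (FDR 0.0321). The authors' deposited table lists Gata3 at a log2 fold change of -0.87 in Het (adjusted p = 0.0316). With the block the change was -0.90 in Het (edgeR FDR 0.00681) and -0.70 in KO (edgeR FDR 0.0339). KO recipient 3 changed least, with a log2 ratio of -0.09. The blocked calls were lost without recipient 2 in Het (edgeR FDR 0.0563) and without recipient 1 or 2 in KO (edgeR FDR 0.133 and 0.143).

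Of 11 Th2 genes linked to GATA3, 8 were tested, and averaged over genotypes 3 fell and 3 rose in both fits, where 8.18% of all tested genes fell and 9.91% rose without the block and 20.7% and 20.3% did with it. The median log2 fold change of the 8 was -0.12 against -0.02 over all tested genes. Those that fell were the chemokine receptors Ccr4 and Ccr8 and the prostaglandin D2 receptor Ptgdr2. Ccr4 went from 19.5 ± 8.0 to 4.94 ± 2.63 CPM in Het and from 15.4 ± 6.67 to 0.564 ± 0.285 CPM in KO (SD, n = 3 per group; edgeR FDR 0.000913 averaged). Ptgdr2 went from 6.80 ± 4.34 to 0.239 ± 0.134 CPM in Het and from 3.18 ± 2.27 to 0.678 ± 0.192 CPM in KO (SD, n = 3 per group; edgeR FDR 0.00318 averaged), on 4 and 13 counts in the GFP-positive groups. Those that rose were the receptor chain Il4ra (log2 0.78, edgeR FDR 0.00340), Zfpm1, whose product binds GATA factors (log2 1.11, edgeR FDR 0.00945), and Gfi1. With the block 3 rose and 4 fell in Het (background 22.2%), and 3 rose and 3 fell in KO (background 17.7%). The remaining tested genes of the list were Il1rl1 and Stat6. Il1rl1 went from 55.1 ± 15.6 to 29.8 ± 19.3 CPM in Het and from 63.9 ± 9.83 to 76.3 ± 17.0 CPM in KO. Stat6 went from 129 ± 17.4 to 148 ± 38.1 CPM in Het and from 153 ± 5.91 to 145 ± 16.1 CPM in KO (SD, n = 3 per group for both). The cytokine genes Il4, Il5 and Il13 held at most 10 counts in any group and were not tested.

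Bhlhe40 (chromosome 6, 108660629 to 108666925, plus strand), an activity-induced repressor that permits GM-CSF and limits interleukin-10 production, measured 569, 600 and 792 CPM in Het GFP-negative and 345, 349 and 525 CPM in Het GFP-positive libraries. In KO it measured 671, 533 and 552 CPM in GFP-negative and 550, 341 and 321 CPM in GFP-positive libraries. The Het sorts did not overlap, and in KO only GFP-positive replicate 1 reached into the GFP-negative range. Averaged over genotypes Bhlhe40 fell by 0.61 on the log2 scale (SE 0.18, edgeR FDR 0.0369) and by 0.63 with the block (SE 0.11, edgeR FDR 0.00105). Without the block the call was lost on leaving out any 1 of 8 of the 12 libraries (edgeR FDR 0.0662 to 0.0960), and with the block on leaving out none of the 6 recipients. With the block the change was -0.70 in Het (edgeR FDR 0.00810), lost without recipient 2 (edgeR FDR 0.0788), and -0.57 in KO (edgeR FDR 0.0275), lost without recipient 2 or 3 (edgeR FDR 0.121 and 0.237). The authors' deposited table lists Bhlhe40 at a log2 fold change of -0.66 in Het (adjusted p = 0.0450).

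Maf (chromosome 8, 115682942 to 115707794, minus strand), a driver of Il10 and Il21, measured 156, 150 and 144 CPM in Het GFP-negative and 202, 90.9 and 181 CPM in Het GFP-positive libraries. The KO values were 156, 179 and 108 CPM in GFP-negative and 75.9, 146 and 115 CPM in GFP-positive libraries. The sorts overlapped in both genotypes, and 3 of 6 recipients went each way. The log2 fold change averaged over genotypes was -0.16 (SE 0.21, edgeR FDR 0.595). Of the other genes linked to MAF and BHLHE40, Il4 and Bhlhe41 were not tested, and the small MAF genes Maff, Mafg and Mafk, called in neither fit, had averaged values of 0.68, 0.32 and 0.20 (edgeR FDR 0.154, 0.202 and 0.341). Csf2, the gene of GM-CSF, fell by 2.61 on the log2 scale averaged over genotypes (edgeR FDR 0.00446), from 2.08 ± 0.516 to 0.491 ± 0.257 CPM in Het and from 1.61 ± 0.551 to 0.146 ± 0.161 CPM in KO (SD, n = 3 per group), on 8 and 4 counts in the GFP-positive groups. Il10 rose in Het from 0.933 ± 0.719 to 16.8 ± 14.4 CPM (SD, n = 3 per group; edgeR FDR 0.0347) and stood at 1.61 ± 1.23 and 1.24 ± 1.07 CPM in the KO sorts (SD, n = 3 per group). Averaged over genotypes and with the block, Il10 rose by 1.88 (edgeR FDR 0.00472) and Il21 by 0.89 (edgeR FDR 0.0323).

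Runx2 (chromosome 17, 44495987 to 44814797, minus strand), a RUNX factor of long-lived T cells and bone, measured 239, 194 and 205 CPM in Het GFP-negative and 130, 113 and 119 CPM in Het GFP-positive libraries. For KO the values were 157, 176 and 111 CPM in GFP-negative and 120, 122 and 152 CPM in GFP-positive libraries. Every Het GFP-negative library lay above all other libraries, and the remaining groups overlapped. In Het, Runx2 fell by 0.82 on the log2 scale (SE 0.18, edgeR FDR 0.0332; with the block FDR 0.00808). The unblocked call was lost without any 1 of the 6 Het libraries (edgeR FDR 0.0589 to 0.104) or without KO GFP-negative replicate 1 (edgeR FDR 0.0528), while the blocked call held on leaving out each recipient in turn. Averaged over genotypes Runx2 fell by 0.50 (SE 0.13, edgeR FDR 0.0267), lost without any 1 of 4 libraries (replicate 2 of either Het sort, replicate 1 of KO GFP-negative or replicate 2 of KO GFP-positive cells; edgeR FDR 0.0541 to 0.0729), and with the block lost when recipient 2 of both genotypes was left out (edgeR FDR 0.0873). In KO the change was -0.17 (SE 0.18, edgeR FDR 0.605), with KO recipient 3 going up by 0.44. The authors' deposited table lists Runx2 at a log2 fold change of -0.80 in Het (adjusted p = 0.000386). The antisense gene Runx2os1 held 2.19% as many counts as Runx2; the strand setting of the counting is not given in the sources used here.

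Runx3 (chromosome 4, 135120652 to 135177990, plus strand), which supports cytotoxic and Th1 programmes, measured 162, 101 and 80.3 CPM in Het GFP-negative and 246, 172 and 113 CPM in Het GFP-positive libraries. In KO it measured 97.4, 107 and 94.2 CPM in GFP-negative and 107, 104 and 159 CPM in GFP-positive libraries. The groups overlapped, yet the GFP-positive library was the higher one in 3 of 3 Het recipients. The Het log2 fold change was 0.63 (SE 0.30, edgeR FDR 0.234) without and 0.62 (SE 0.16, edgeR FDR 0.0189) with the block, a call lost without Het recipient 1 or 2 (edgeR FDR 0.0788 and 0.148). In KO it was 0.29 with the block (edgeR FDR 0.219). An offset for GC content and transcript length ended the rise: with the block and the offset the averaged value went from 0.46 to 0.05 (edgeR FDR 0.00878 and 0.726).

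Runx1 (chromosome 16, 92601466 to 92826149, minus strand), the RUNX factor of early T cell development, measured 315, 182 and 149 CPM in Het GFP-negative and 313, 199 and 207 CPM in Het GFP-positive libraries. The KO values were 146, 246 and 169 CPM in GFP-negative and 201, 326 and 332 CPM in GFP-positive libraries. The sorts overlapped in both genotypes, and 5 of 6 recipients had the higher value in the GFP-positive library. With the block Runx1 rose in KO by 0.62 (SE 0.16, edgeR FDR 0.0249), a call lost without KO recipient 2 or 3 (edgeR FDR 0.0605 and 0.257), and averaged over genotypes by 0.41 (edgeR FDR 0.0136), lost without KO recipient 3 (edgeR FDR 0.0718). With the offset as well the averaged value was 0.11 (edgeR FDR 0.348).

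The shares of the RUNX genes are given as a description, with no test and no correction for GC content and length; with that offset the Het value of Runx3 was 0.15 (edgeR FDR 0.754). Of the summed RUNX level in RPKM, Runx3 made up 34.5% ± 3.39 in Het GFP-negative and 50.1% ± 6.85 in Het GFP-positive cells, and Runx2 made up 38.2% ± 6.70 and 20.5% ± 4.42 (SD, n = 3 per group). Neither share overlapped between the Het sorts. In KO, Runx3 made up 38.3% ± 3.43 and 38.6% ± 4.54, Runx2 31.8% ± 4.15 and 23.6% ± 2.27, and Runx1 29.9% ± 4.42 and 37.9% ± 5.97 (SD, n = 3 per group). The Runx3 share thus overlapped between the KO sorts, while the Runx2 share did not. Whether the shift of shares differed between genotypes was not tested.

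**Figure D3:**
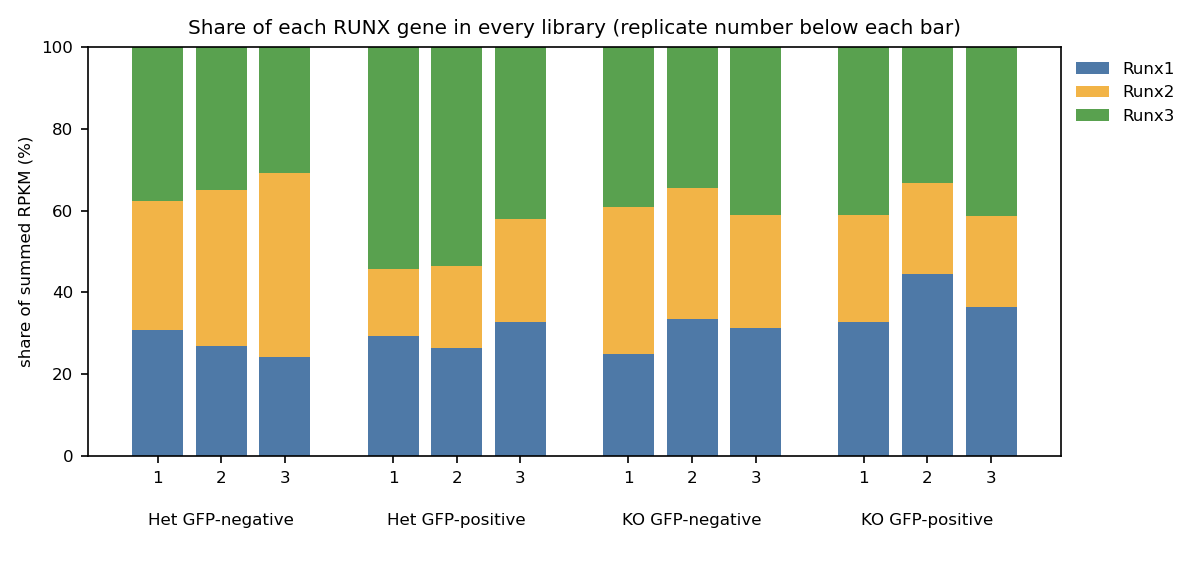
Share of each RUNX gene (vertical axis, percent of the summed RPKM of Runx1, Runx2 and Runx3) in every library (bars, by group and replicate number). In the Het GFP-positive libraries Runx3 made up 42.2% to 54.4%, against 30.9% to 37.7% in the Het GFP-negative ones.

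The 9 RUNX cofactors and lineage genes were all tested; averaged over genotypes 3 fell and none rose without the block (background 18.1% of all tested genes called), and 5 fell and 1 rose with it (background 41.1%). Their median log2 fold change was -0.43, against -0.02 over all tested genes. Satb1, the gene of a chromatin organiser of T cells, went from 556 ± 20.9 to 147 ± 32.7 CPM in Het and from 305 ± 45.5 to 165 ± 36.4 CPM in KO (SD, n = 3 per group; edgeR FDR 0.000576 averaged). The corepressor gene Tle1 fell by 1.42 on the log2 scale (edgeR FDR 0.0132) and Cd4 by 0.70 (edgeR FDR 0.00586). Cd8b1 fell in Het with the block (edgeR FDR 0.0252), from 1.17 ± 0.576 to 0.109 ± 0.0995 CPM on 53 and 3 counts, and had a blocked value of 0.66 in KO (edgeR FDR 0.334), at 1.35 ± 0.269 and 2.37 ± 1.56 CPM (SD, n = 3 per group). Cd8a and the corepressor gene Tle4, called in neither fit, had averaged values of -0.35 and 0.15 (edgeR FDR 0.775 and 0.324).

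Bcl6 (chromosome 16, 23965052 to 23988852, minus strand), the master factor of follicular helper cells, was low, at 10.5 to 20.6 CPM in 11 of 12 libraries. It measured 16.5, 13.7 and 13 CPM in Het GFP-negative and 12.3, 19.9 and 14.6 CPM in Het GFP-positive libraries. For KO the values were 12.7, 14 and 10.5 CPM in GFP-negative and 11.3, 49.3 and 20.6 CPM in GFP-positive libraries. KO GFP-positive replicate 2, the library with the fewest counts, stood apart at 49.3 CPM, on 69 counts. The KO log2 fold change was 1.02 (SE 0.41, edgeR FDR 0.255). It was 0.37 without KO GFP-positive replicate 2 (edgeR FDR 0.661) and 1.44 without replicate 1 (edgeR FDR 0.0254; averaged over genotypes 0.77, FDR 0.0228); in Het it was 0.09 (SE 0.40, edgeR FDR 0.915). With the block the KO value was 0.86 (edgeR FDR 0.0780), 0.42 without KO recipient 2 (edgeR FDR 0.418) and 1.39 without KO recipient 1 (edgeR FDR 0.00352). On all libraries, limma-voom with quality weights called Bcl6 higher in KO (0.85, limma-voom FDR 0.0104) and averaged over genotypes (0.51, limma-voom FDR 0.0418). Of 12 follicular helper genes, 10 were tested, and averaged over genotypes 1 rose and 2 fell without the block (background 18.1%) and 3 rose and 3 fell with it (background 41.1%), at a median log2 fold change of 0.04 against -0.02 over all tested genes. The costimulatory receptor gene Icos fell by 1.15 on the log2 scale (edgeR FDR 0.00980) and the memory factor Tcf7 by 0.88 (edgeR FDR 0.0258). The cytokine receptor subunit gene Il6st rose by 0.80 (edgeR FDR 0.0186), and Sh2d1a, the gene of the adaptor SAP, rose in Het with the block by 0.69 (edgeR FDR 0.0238) and had a value of -0.32 in KO (edgeR FDR 0.269). Batf and Irf4, called in neither fit, had averaged values of 0.04 and -0.07 (edgeR FDR 0.876 and 0.844).

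Zeb2 (chromosome 2, 44983634 to 45117395, minus strand), a repressor that drives terminal effector differentiation, measured 81.5, 35.6 and 41.7 CPM in Het GFP-negative and 67.9, 92.1 and 74.6 CPM in Het GFP-positive libraries. In KO it measured 123, 80.4 and 172 CPM in GFP-negative and 255, 122 and 205 CPM in GFP-positive libraries. The KO GFP-positive libraries all lay above the Het GFP-positive ones, and 5 of 6 recipients had the higher value in the GFP-positive library. Averaged over genotypes the change between sorts was 0.60 without the block (SE 0.25, edgeR FDR 0.107) and 0.64 with it (SE 0.18, edgeR FDR 0.0165). Without Het GFP-negative replicate 1, the highest of its group, the unblocked value was 0.83 (edgeR FDR 0.0351). The blocked call was lost without Het recipient 2 (edgeR FDR 0.0668), and with the offset for GC content and length the value was 0.29 (edgeR FDR 0.187). Among 8 effector genes linked to ZEB2, all tested, 1 fell without the block (background 18.1%), and 1 rose and 1 fell with it (background 41.1%), averaged over genotypes; the median log2 fold change was -0.03 against -0.02 over all tested genes. Il7r, which ZEB2-driven effector cells keep low, went from 504 ± 50.9 to 134 ± 26.8 CPM in Het and from 288 ± 79.8 to 68.5 ± 35.4 CPM in KO (SD, n = 3 per group; edgeR FDR 0.000783 averaged). The corepressor gene Ctbp2 rose by 1.19 with the block (edgeR FDR 0.00525). Klrg1, a receptor of terminal effector cells, fell in KO with the block by 1.51 (edgeR FDR 0.0431), although the KO GFP-positive libraries spanned 2.86 to 93.4 CPM and the KO GFP-negative ones 17.0 to 95.4 CPM. In Het its blocked value was 0.51 (edgeR FDR 0.365). Ctbp1 and Tbx21, called in neither fit, had averaged values of 0.15 and 0.08 (edgeR FDR 0.282 and 0.837).

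**Figure D4:**
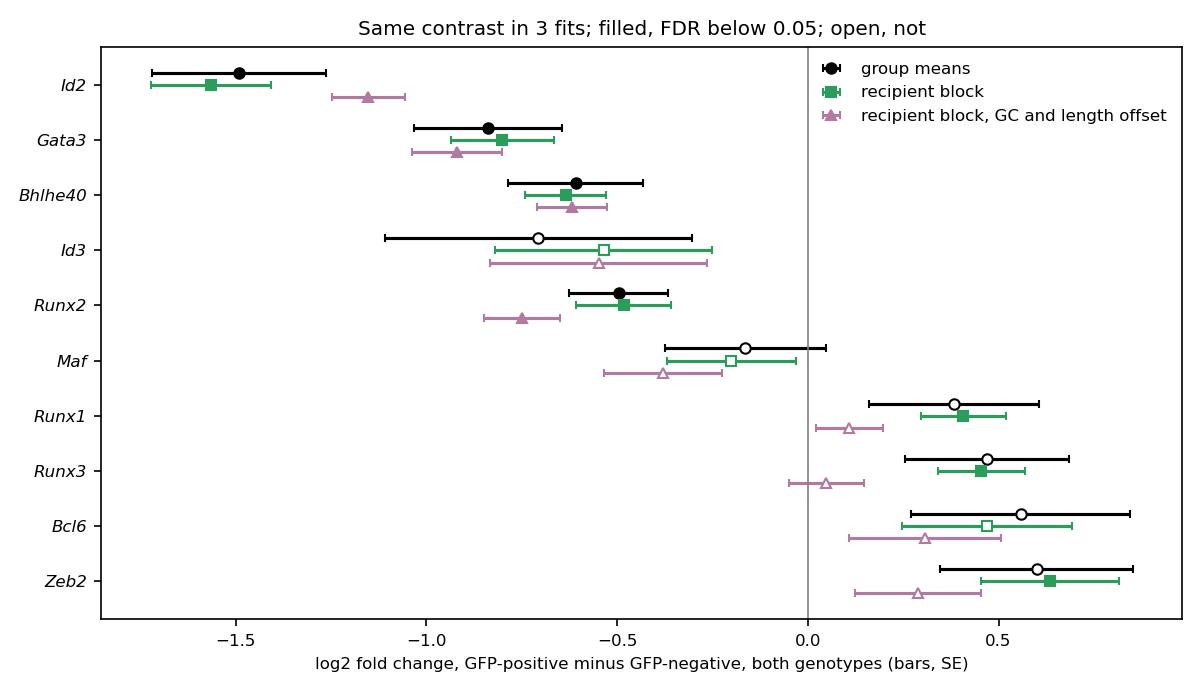
Log2 fold change of each regulator in GFP-positive minus GFP-negative cells averaged over genotypes (horizontal axis; bars, SE) in 3 fits (black, group means; green, recipient block; violet, recipient block with GC and length offset). Filled symbols passed FDR 0.05: Id2, Gata3, Bhlhe40 and Runx2 did in all 3 fits, and Runx1, Runx3 and Zeb2 only with the block and without the offset.

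The comparison of Het with KO GFP-positive cells asks which genes depend on EOMES among cells that switched the locus on. By edgeR 0 of the 10 regulators passed FDR 0.05, where 0.106% of all genes did, and DESeq2 called 0. Of the 13238 genes 824 had an unadjusted p under 0.05 by edgeR, with 1 regulator among them. That regulator was Zeb2, 2.51-fold lower in Het GFP-positive cells, with a log2 difference of -1.33 (SE 0.36, edgeR FDR 0.324, DESeq2 FDR 0.0539). Without a filter on low counts edgeR called Zeb2 (FDR 0.0425). The authors' deposited table lists Zeb2 among 77 genes with a log2 fold change of 1.13 (adjusted p = 0.00887); all 77 genes have the sign opposite to Het minus KO in the counts, so, read as KO over Het, that table also has Zeb2 lower in Het. Zeb2 was the 1 regulator of 10 whose groups did not overlap here (background 7.48%). The summed myeloid markers averaged 2332 CPM in Het and 795 CPM in KO GFP-positive cells; their part in the Zeb2 difference was not tested.

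The other differences between the GFP-positive groups were not called. Runx3 was 0.51 higher in Het on the log2 scale (SE 0.31, edgeR FDR 0.899), Maf 0.51 (SE 0.30, edgeR FDR 0.898) and Gata3 0.49 (SE 0.28, edgeR FDR 0.885), and Bcl6 was -0.72 (SE 0.42, edgeR FDR 0.897). The remaining 5 regulators lay between -0.40 and 0.28, and Bhlhe40, at 0.01, took the other sign under 15 of 20 alternatives.

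Between the GFP-negative groups edgeR called 0 of the 10 regulators and 0% of all genes, and DESeq2 called 0 regulators. An unadjusted p under 0.05 by edgeR was found for 3 regulators and for 695 of the 13238 genes. Zeb2 showed a difference of nearly the same size here, -1.25 (SE 0.36, edgeR FDR 0.788), although the ranges overlapped. Runx2 was 0.52 higher in Het (SE 0.18, edgeR FDR 0.935) with no overlap, as 1 of 10 regulators against 11.3% of all genes. Gata3 was 0.70 higher in Het (SE 0.27, edgeR FDR 0.935). The remaining 7 regulators lay between -0.24 and 0.22.

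**Figure D5:**
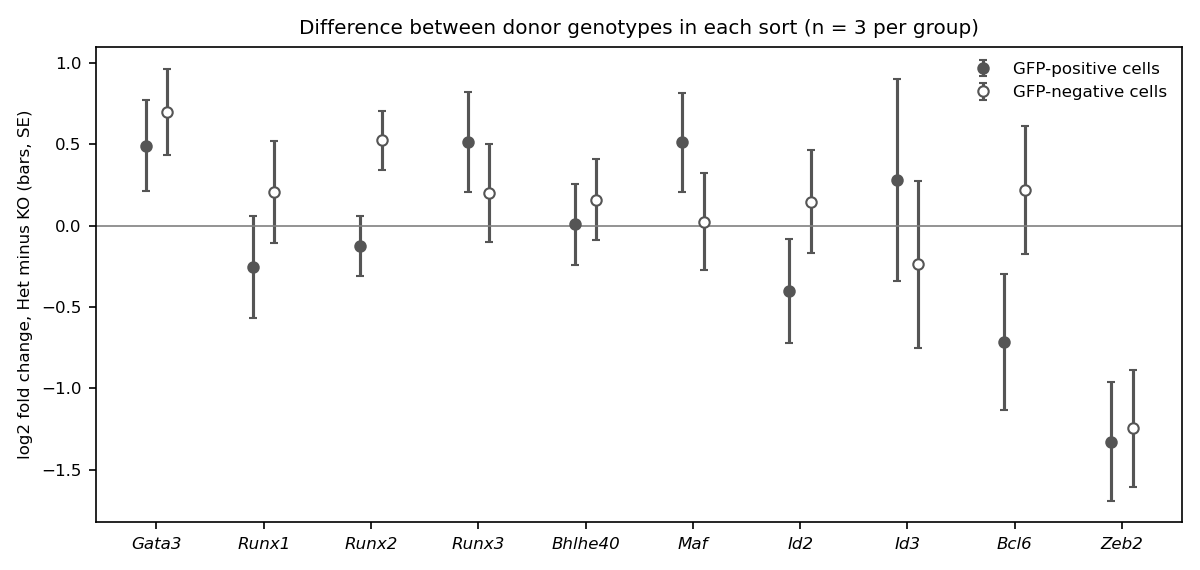
Log2 difference of Het minus KO (vertical axis; bars, SE; 3 libraries per group) for each regulator (horizontal axis) in GFP-positive (filled) and GFP-negative cells (open). Zeb2 lay at -1.33 and -1.25 in the 2 sorts, and none of the 10 passed FDR 0.05 in either.

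Whether the change with GFP itself differed between genotypes was tested as an interaction. It called 0 of the 10 regulators without the block (0.00755% of all genes) and 0 with it (0.0755%), and DESeq2 called 0. An unadjusted p under 0.05 by edgeR was found for 1 regulator, Runx2, in each fit. Of the 13238 genes, 264 reached it without and 632 with the block. The Runx2 interaction was -0.65 (SE 0.26, edgeR FDR 1.00) and -0.67 with the block (SE 0.25, edgeR FDR 0.809), so that the fall of Runx2 in Het and its small change in KO were not shown to differ. Bcl6 had the largest estimate, -0.93 (SE 0.57, edgeR FDR 1.00). The remaining 8 regulators lay between -0.55 and 0.52.

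Across the 12 libraries, which share depth and marker differences between the sorts, Bhlhe40 and Id2 were the most alike of the 10 (Pearson r 0.93 of log2 CPM, n = 12 libraries). Among 9775 genes averaging 5 CPM or more, the closest to Id2 were Appl1 (r 0.98) and Cnot2 (r 0.98), and the closest to Bhlhe40 were Ube2g1 (r 0.98) and Ap3s1 (r 0.98). Gata3 was closest to Nav1 (r 0.95) and Fam160a2 (r 0.95), Runx2 to E430014B02Rik (r 0.95) and Plekhm3 (r 0.94), and Zeb2 to Rbl1 (r 0.93) and Brip1 (r 0.92). Runx3 was closest to Zdhhc18 (r 0.96) and Arhgef18 (r 0.94), Runx1 to Ankrd17 (r 0.96) and Zfp346 (r 0.96), and Maf to Casp4 (r 0.90) and Tnfrsf4 (r 0.85). Bcl6 was closest to Ext1 (r 0.90) and Snx19 (r 0.90), and Id3 to Pdcd1lg2 (r 0.93) and Yipf2 (r 0.92). These values describe likeness over libraries that also differ by sort and recipient.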

How the data were processed

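RNA was read in 12 libraries of mouse CD4+ T cells in 4 groups of 3, made per the labels from total RNA with a stranded kit after ribosomal RNA depletion. The authors deposited whole-number counts per gene with exon lengths, not normalized. The submitters' processing notes name bcl2fastq 1.8.4, TopHat2 2.0.13, featureCounts 1.5.0-p1, DESeq2 1.6.1 and mm10, and the strand setting is not given in the sources used here. The authors' deposited tables of 3 comparisons hold, per the file headers, a mean normalized signal, log2 fold changes, a test statistic (a score) and p-values with their adjusted values.

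The counts of 13238 genes that passed filterByExpr (minimum count 10) were tested with edgeR 4.0.16 (quasi-likelihood, TMM, 1 mean per group over 12 libraries, Benjamini-Hochberg over all genes, two-sided, in R 4.3.3). SE was the size of the log2 fold change over the root of the F statistic. CPM are TMM-scaled, and RPKM divides CPM by exon length. Without the block, p-values measure the spread between libraries of a group, each from another recipient. They then take the 2 sorts of a recipient as independent. With the block, they measure the spread of the differences between sorts within recipients. The test was checked on simulated counts with 200 changed genes. Per the design text, same-numbered libraries of a genotype share a recipient; their deviations from the group means correlated at 0.547, 0.241 and 0.617 in Het and 0.507, 0.506 and 0.263 in KO. Alternatives were the recipient as a block or random effect, DESeq2 1.42.0, limma-voom (limma 3.58.1), DESeq2-style scaling, no filter, the groups compared alone, removal of 4 abundant features, a GC and length offset (GENCODE M21) and leaving out each library or recipient. Named genes are the 10 regulators, per regulator the 2 genes most correlated with it, and per fixed list up to 4 called and 2 uncalled genes. Beyond these limits, further called genes of the Th2 list and a further uncalled gene linked to MAF and BHLHE40 were named, as were untested list genes and cell type markers. The regulators and lists were chosen with earlier results of these data known. The counts and median of the list of genes linked to MAF and BHLHE40, and 1 gene of it, are not reported here.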

Additional observations from a re-analysis of the deposited data

How the results depend on the processing

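Id2, Gata3, Bhlhe40 and Runx2 kept their direction in the average of both genotypes under every alternative run. In Het GFP-positive against GFP-negative cells the number of the 10 regulators called was 2. It was 3 by DESeq2, 3 with no filter, 3 with the GC and length offset and 4 by limma-voom with quality weights. With the replicate block it was 5, with the block as a random effect 5, and with the GC and length offset and block 4. Without a single library it was 0 to 2. In KO it was 0, and 1 by DESeq2, 1 with no filter, 5 by limma-voom, 4 with the replicate block, 2 with the random effect, 3 with the offset and block, and 0 to 3 without a single library. Averaged over genotypes it was 4, and 8 by limma-voom, 7 with the replicate block, 7 with the random effect and 1 to 5 without a single library. In Het against KO GFP-positive cells it was 0, and 1 with no filter. With the replicate block, leaving out 1 recipient at a time gave 2 to 5 calls in Het and 1 to 5 in KO, and leaving out recipient 2 of both genotypes gave 2 and 1. Genes called overall ran from 88 to 3249 in Het (main 457), 5 to 5808 in KO (main 17, and 1760 without KO GFP-positive replicate 1), 713 to 6533 averaged (main 2395), 2 to 93 for Het against KO GFP-positive (main 14), 0 to 81 for GFP-negative cells (main 0) and 0 to 30 for the interaction (main 1). With the block they ran from 1070 to 3994 in Het (2944 on all libraries), 319 to 3930 in KO (2349), 2922 to 6204 averaged (5438) and 1 to 19 for the interaction (10).

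Log2 values of the 10 regulators took the other sign as follows, in no case for a value called in the group-mean or blocked fit, and none past FDR 0.05 with the other sign. With the GC and length offset the values were Runx1 in Het -0.096, Runx3 in KO -0.043, Bhlhe40 in Het minus KO GFP-positive cells -0.052, Maf in Het -0.098, Maf in Het minus KO GFP-negative cells -0.049, Bcl6 in Het -0.077 and Zeb2 in the interaction 0.017. With the offset and the block the values were Runx1 in Het -0.082, Runx3 in KO -0.059, Maf in Het -0.16, Bcl6 in Het -0.094 and Zeb2 in the interaction 0.057. By limma-voom the values were Runx2 in KO 0.062, Bhlhe40 in the interaction 0.067, Maf in Het -0.35, Maf in the interaction -0.13, Id3 in Het minus KO GFP-negative cells 0.26 and Zeb2 in the interaction 0.31. Bhlhe40 in Het minus KO GFP-positive cells (0.01 in the group-mean fit) was -0.0070 by DESeq2, -0.012 with RLE size factors, -0.014 with no filter, -0.037 with only the groups compared and -0.028 with the abundant features removed. With the replicate block Zeb2 in the interaction was 0.0036. With the block and without recipient 2 of both genotypes the values were Runx2 in KO 0.032, Bcl6 in Het -0.12 and Zeb2 in the interaction -0.36. Without a single library the ranges were Gata3 in the interaction -0.42 to 0.041, Runx1 in Het -0.10 to 0.54, Runx1 in Het minus KO GFP-negative cells -0.19 to 0.41, Runx3 in Het minus KO GFP-negative cells -0.15 to 0.37, Runx3 in the interaction -0.0054 to 0.65, Bhlhe40 in Het minus KO GFP-positive cells -0.23 to 0.26, Bhlhe40 in Het minus KO GFP-negative cells -0.032 to 0.25, Bhlhe40 in the interaction -0.36 to 0.13, Maf in Het -0.15 to 0.34, Maf in Het minus KO GFP-negative cells -0.18 to 0.15, Id2 in Het minus KO GFP-positive cells -0.71 to 0.11, Id3 in Het minus KO GFP-positive cells -0.074 to 0.63, Id3 in Het minus KO GFP-negative cells -0.66 to 0.12, Bcl6 in Het -0.11 to 0.22 and Zeb2 in the interaction -0.37 to 0.36. Without a single recipient, with the block, the ranges were Gata3 in the interaction -0.48 to 0.15, Runx2 in KO -0.46 to 0.024, Bhlhe40 in the interaction -0.24 to 0.0019, Maf in Het -0.19 to 0.34, Id3 in Het -0.62 to 0.0097, Bcl6 in Het -0.13 to 0.32 and Zeb2 in the interaction -0.34 to 0.44. The cause was not tested. Depth limits Id3, with at most 83 counts per library, and all genes in KO GFP-positive replicate 2, with 967089 counts outside the abundant features.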
